A study of Mus musculus with 13 samples.

Results

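The genes described are 10 genes of the cytotoxic granule: the granzymes Gzma, Gzmb, Gzmc, Gzmk and Gzmm, perforin (Prf1), serglycin (Srgn), the granzyme B inhibitor Serpinb9, cathepsin W (Ctsw) and the granule membrane protein Nkg7. They were chosen by name, as the rows whose Ensembl identifiers are those of these mouse genes in the GENCODE M21 annotation, and all 10 were found among the 54532 genes counted. RNA was sequenced from sorted natural killer (NK) cells of mice on a C57BL/6J background aged 8 to 10 weeks. The groups are liver-resident NK (LrNK) cells, taken from liver lymphocytes, and conventional NK (cNK) cells, which the labels take from splenocytes, each from wild-type (WT, named B6 in the titles) mice and from mice labelled CD8KO. The LrNK and cNK groups therefore differ in organ as well as in cell type, and these cannot be told apart. The question behind the genotype comparison was whether CD8+ T cells affect how liver-resident NK cells mature.

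NK cells kill by releasing granules that hold perforin, which opens the target membrane, and granzymes, serine proteases that enter through it. Serglycin is the proteoglycan core on which granule proteins are packed, and Serpinb9 protects the killer cell from its own granzyme B. Liver-resident NK cells are usually told from conventional NK cells by CD49a (Itga1) and CXCR6 in place of CD49b (Itga2) and Eomes.

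The 13 libraries held between 30578631 and 72716020 counts each. LrNK WT libraries 2 and 4, and LrNK CD8KO libraries 2 and 3, agreed far more closely than any other pair (chi-square per degree of freedom of 3.04 and 2.67, against 196 to 283 for the other LrNK pairs and 8.92 to 18.1 for cNK pairs), so each of these pairs was summed and counted as 1 sample. That left n = 3 for LrNK WT, n = 2 for LrNK CD8KO, and n = 3 for each cNK group. The labels do not say whether each sample is another animal, and p-values then measure only the spread between samples, which may be technical. LrNK WT samples 1 and 3 and LrNK CD8KO sample 1 detected 13917 to 15797 genes, and every other library detected 19896 to 22921. The markers followed the cell type labels: 7 liver-resident genes summed to 1010 to 1820 counts per 1000000 counts (CPM) in LrNK and 65.5 to 86.6 in cNK samples, and 8 conventional NK genes summed to 100.2 to 333 and 3002 to 3776. Cd8a was not lost in the samples labelled CD8KO, at 41.6 to 43.7 CPM against 20.1 to 20.5 in LrNK and 85.9 to 109.1 against 0.561 to 0.578 in cNK cells, so the genotype is given throughout as labelled. The labels do not describe the allele.

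Gzma (ENSMUSG00000023132, chr13:113093825-113100981) and Gzmk (ENSMUSG00000042385, chr13:113171608-113225908) lie next to each other on the minus strand of chromosome 13. Gzmb (ENSMUSG00000015437, chr14:56258838-56262260) and Gzmc (ENSMUSG00000079186, chr14:56231441-56234656) lie on the minus strand of chromosome 14, at the edge of a cluster of granzyme and mast cell protease genes. On chromosome 10 are Prf1 (ENSMUSG00000037202, chr10:61297833-61304680), Srgn (ENSMUSG00000020077, chr10:62493833-62527451) and Gzmm (ENSMUSG00000054206, chr10:79689020-79695261). Serpinb9 (ENSMUSG00000045827) is at chr13:33003250-33017957, Ctsw (ENSMUSG00000024910) at chr19:5465043-5468507 and Nkg7 (ENSMUSG00000004612) at chr7:43437073-43438249, all on GRCm38. The reads could nearly always be placed: 8 members shared no 50-base stretch with the transcripts of another gene, while 4.14% of those of Gzmc also occur in Gzme, Gzmg or Gzmd and 0.38% of those of Serpinb9 in Serpinb9b. Ctsw shared 9 exonic bases, 0.5% of its exons, with Fibp on the opposite strand.

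RefSeq promoter sequences (GRCm38.p6) were found for 9 of the 10 members, Ctsw being the exception. The 200 bases before the start site are shown for Gzma (chr13:113100982-113101181), Gzmb (chr14:56262335-56262534) and Gzmc (chr14:56234658-56234857), all minus strand, and Prf1 (chr10:61297636-61297835, plus strand), because the results on granzymes A, B and C and on perforin turn on these genes. Each is written 5′ to 3′ in the direction of the gene, and capitals mark matches, on either strand, to GGTGTGA (T-box), TGTGGT (RUNX), TGANTCA (AP-1), TTCNNNGAA (the GAS site of STAT factors) or AGGAAG (ETS).
Gzma: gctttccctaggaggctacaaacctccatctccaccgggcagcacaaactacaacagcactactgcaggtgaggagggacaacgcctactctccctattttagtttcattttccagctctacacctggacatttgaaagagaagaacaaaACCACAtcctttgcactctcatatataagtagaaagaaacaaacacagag
Gzmb: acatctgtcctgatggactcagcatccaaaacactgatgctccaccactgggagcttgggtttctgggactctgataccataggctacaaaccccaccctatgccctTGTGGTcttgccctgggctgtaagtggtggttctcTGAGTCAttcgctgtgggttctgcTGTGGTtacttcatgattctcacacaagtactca
Gzmc: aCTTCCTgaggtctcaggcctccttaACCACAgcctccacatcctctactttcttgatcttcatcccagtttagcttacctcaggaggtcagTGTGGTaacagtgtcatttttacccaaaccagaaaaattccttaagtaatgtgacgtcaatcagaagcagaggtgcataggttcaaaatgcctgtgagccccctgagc
Prf1: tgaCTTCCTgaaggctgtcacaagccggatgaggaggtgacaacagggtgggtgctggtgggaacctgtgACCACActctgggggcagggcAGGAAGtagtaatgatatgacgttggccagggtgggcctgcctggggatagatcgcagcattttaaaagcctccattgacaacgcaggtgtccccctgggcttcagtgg
In the 250 bases before the start, TGTGGT matched 2 times in Gzmb, 2 times in Gzmc, and 1 time each in Gzma and Prf1, and 14.0% of all 32851 RefSeq mouse promoters of that length hold at least 1 match. TGANTCA matched in Gzmb alone among these 4 genes (6.7% of all promoters), AGGAAG matched in Gzmc and Prf1 (29.5%), and neither GGTGTGA (3.3%) nor TTCNNNGAA (7.0%) matched in any of the 4. GGTGTGA did match 1 time before Gzmk, before Nkg7 and before a second start of Gzmm. These matches describe the letters in these windows and were not related to binding.

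Levels of different genes were compared per kilobase of annotated exon. In LrNK WT cells the order was Gzma (3356 ± 379 CPM per kb, SD, n = 3), Gzmb (2148 ± 312), Nkg7 (1130 ± 188), Ctsw (607 ± 69.5), Srgn (388 ± 90.3), Gzmc (260.1 ± 9.33), Prf1 (130.2 ± 23.3), Serpinb9 (44.8 ± 18.5), Gzmm (3.01 ± 0.944) and Gzmk (0.0979 ± 0.170), with no overlap between neighbours. In cNK WT cells Gzma again led (4976 ± 405 CPM per kb, n = 3), followed by Nkg7 (1539 ± 64.0), Prf1 (534 ± 34.6), Ctsw (509 ± 25.2), Gzmb (448 ± 46.3), Srgn (114.5 ± 5.25), Serpinb9 (106.4 ± 3.37), Gzmm (15.8 ± 0.641), Gzmk (2.72 ± 0.365) and Gzmc (2.41 ± 0.607). There the ranges of Prf1 and Ctsw, of Ctsw and Gzmb, and of Gzmk and Gzmc overlapped. Gzmb therefore ranked 2 of 10 in LrNK and 5 of 10 in cNK cells, while Prf1 ranked 7 of 10 in LrNK and 3 of 10 in cNK cells.

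**Figure D1:**
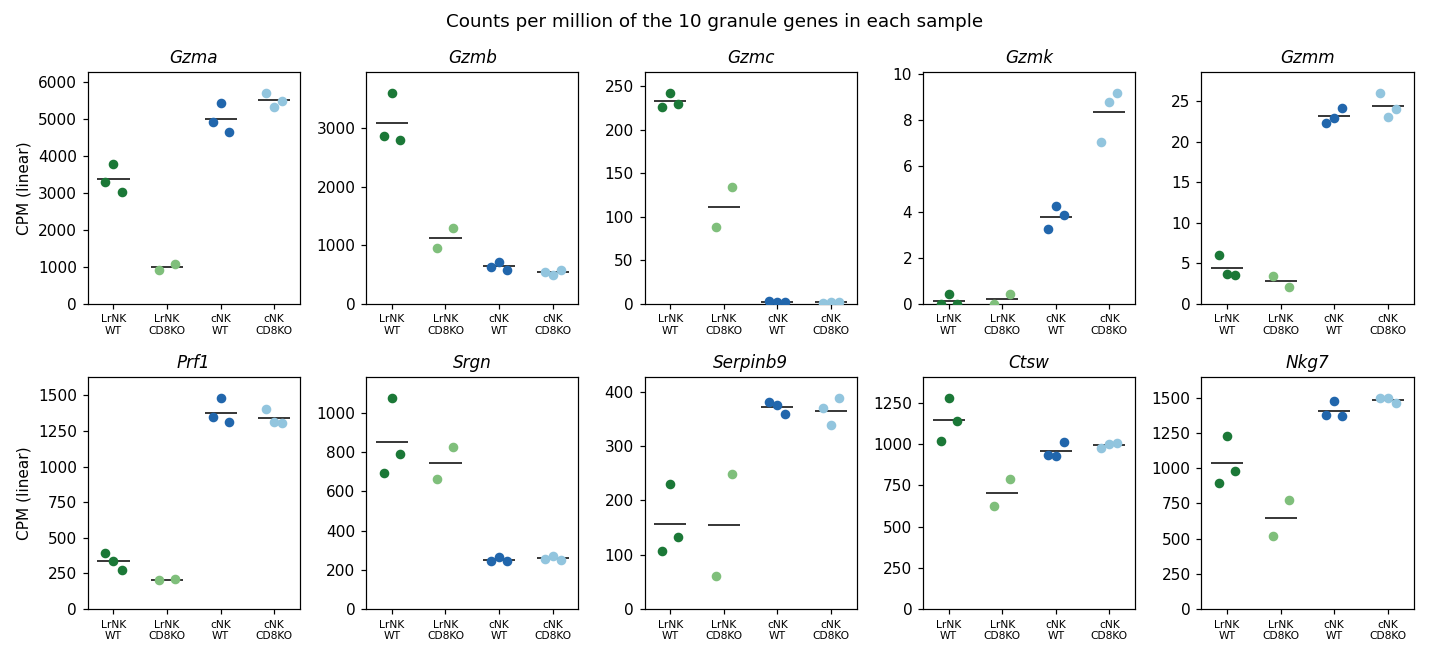
CPM (linear axis from 0, scaled per gene) of the 10 granule genes, with 1 point per sample and a line at the group mean. Gzmb, Gzmc and Srgn are higher in LrNK samples, Prf1 and Gzmm are higher in cNK samples, and Gzma is lowest in the LrNK samples labelled CD8KO (909 and 1074 CPM).

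The first comparison asked how LrNK and cNK cells of WT mice differ in the granule genes. Of the 10 members, 3 rose in LrNK against cNK cells (Gzmb, Gzmc, Srgn) and 3 fell (Gzmm, Prf1, Serpinb9) at an adjusted p under 0.05 (edgeR's quasi-likelihood test with Benjamini-Hochberg adjustment over all genes). Of the 16456 genes tested, 10.9% were called higher and 9.83% lower. In 31.7% of them every LrNK WT sample was below every cNK WT sample, and in 17% above. LrNK WT samples thus held more mRNA of the packing proteoglycan and of granzymes B and C. They held less of perforin, with Gzma, Ctsw and Nkg7 closer to equal. The 14 T cell genes summed to 1480 to 1795 CPM in LrNK WT and 491 to 521 CPM in cNK WT samples. Of the 13 tested, 10 were called higher in LrNK WT samples and 1 lower. The part of T cells in the granule genes was not tested.

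Gzmb, the caspase-activating granzyme, was at 2861, 3601 and 2793 CPM in the LrNK WT samples and at 631, 716 and 585 CPM in the cNK WT samples. The groups were far apart, by 5.09-fold (log2 change 2.35 ± 0.19 SE, adjusted p = 0.000705, edgeR). Gzmc, a granzyme of mice that is not found in humans and can kill without caspases, reached 226, 242 and 229 CPM in the LrNK WT samples against 2.78, 1.79 and 1.91 CPM in the cNK WT samples. Its log2 change of 6.83 ± 0.23 (114-fold, adjusted p = 5.17e-05, edgeR) was the widest of the members tested. The 50-base stretches that Gzmc shares with Gzmd, Gzme and Gzmg could have moved few reads, since Gzmd and Gzme had no count in any LrNK WT or cNK sample and Gzmf, Gzmg and Gzmn had none in any sample.

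Gzma, the tryptase among the granzymes, read 3294, 3792 and 3043 CPM in the LrNK WT samples against 4917, 5450 and 4650 CPM in the cNK WT samples. The groups did not overlap, but the log2 change of -0.48 ± 0.17 missed the threshold (adjusted p = 0.0904, edgeR), and it was called by DESeq2 (adjusted p = 0.0123), under total-count scaling (-0.57, adjusted p = 0.0335) and without LrNK WT sample 2 (-0.62, adjusted p = 0.0143). Gzmm, a granzyme that cuts after methionine or leucine, was scarce, with 6.04, 3.68 and 3.59 CPM in the LrNK WT samples against 22.4, 23.0 and 24.2 CPM in the cNK WT samples. It fell by 2.31 ± 0.27 on the log2 scale (adjusted p = 0.00267, edgeR). Gzmk, a tryptase like granzyme A, had 0, 30 and 0 counts in the LrNK WT samples, where 0 allows at most 0.0768 CPM, against 222, 308 and 207 counts (3.23, 4.24 and 3.87 CPM) in the cNK WT samples. All LrNK samples lay below all cNK samples for Gzmk, but with so few counts the fitted change of -4.56 ± 1.81 was not called (adjusted p = 0.133, edgeR); without LrNK WT sample 2, the only sample with counts, it was called (adjusted p = 0.00545), as it was by DESeq2 on all samples (adjusted p = 0.0153).

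Prf1, the pore-forming protein, measured 396, 337 and 276 CPM in the LrNK WT samples against 1349, 1480 and 1310 CPM in the cNK WT samples. Every LrNK sample was below every cNK sample, with a fall of 1.95 ± 0.17 on the log2 scale (3.87-fold, adjusted p = 0.000946, edgeR). Srgn went the other way, at 694, 1074 and 788 CPM in LrNK WT and 247, 264 and 243 CPM in cNK WT samples, a log2 change of 1.85 ± 0.21 (3.62-fold, adjusted p = 0.00254, edgeR). Serglycin is also made by myeloid cells, and Lyz2, a lysozyme gene of those cells, was at 520 to 3532 CPM in LrNK WT against 12.02 to 16.3 CPM in cNK WT samples. The part of such cells in the level of Srgn was not tested.

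Serpinb9 varied in the LrNK WT samples, at 107, 230 and 133 CPM, against 381, 376 and 359 CPM in the cNK WT samples. Its log2 change of -1.15 ± 0.31 was just past the threshold (adjusted p = 0.0445, edgeR) and was not called without LrNK WT sample 1 (-0.94, adjusted p = 0.0666) or 3 (-1.04, adjusted p = 0.0891), nor without cNK WT sample 1 (adjusted p = 0.138), 2 (0.133) or 3 (0.130), nor when all 4 groups shared 1 spread (0.0850). Within LrNK cells Serpinb9 followed the number of detected genes, at 230 and 248 CPM in the samples with many and 61.6 to 133 CPM in the samples with few. Ctsw, a cysteine protease of cytotoxic cells, was at 1017, 1279 and 1142 CPM in LrNK WT and 934, 931 and 1015 CPM in cNK WT samples, and Nkg7, a membrane protein needed for degranulation, was at 894, 1226 and 979 CPM and at 1376, 1474 and 1369 CPM. Neither was called (log2 changes of 0.34 ± 0.15 and -0.35 ± 0.18, adjusted p = 0.158 and 0.218, edgeR), though Nkg7 was without LrNK WT sample 2 (-0.55, adjusted p = 0.0108).

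The comparison of LrNK with cNK cells was repeated in the samples labelled CD8KO. There 3 members rose in LrNK cells (Gzmb, Gzmc, Srgn) and 5 fell (Gzma, Gzmk, Gzmm, Prf1, Nkg7), against 15.4% of 17795 genes called higher and 11.6% called lower. The groups were apart in 38.4% of these genes with LrNK lower and in 23.3% with LrNK higher. Gzma was at 909 and 1074 CPM in LrNK CD8KO and at 5717, 5345 and 5508 CPM in cNK CD8KO samples, a fall of 2.35 ± 0.15 on the log2 scale (5.09-fold, adjusted p = 0.000647, edgeR). Gzmb was at 955 and 1288 CPM against 550, 495 and 577 CPM, still apart, with a log2 change of 1.18 ± 0.18 (adjusted p = 0.00774, edgeR) that was not called without cNK CD8KO sample 1 (1.20, adjusted p = 0.0553) or 2 (1.13, adjusted p = 0.0543). Gzmc, at 88.0 and 134 against 1.36, 1.64 and 1.57 CPM, rose by 6.32 ± 0.27 on the log2 scale (adjusted p = 0.000222, edgeR).

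Prf1, at 205 and 210 CPM against 1404, 1312 and 1307 CPM, fell by 2.57 ± 0.12 on the log2 scale (5.93-fold, adjusted p = 0.000267, edgeR). Gzmm, at 3.48 and 2.09 against 26.0, 23.0 and 24.1 CPM, fell by 3.03 ± 0.25 (adjusted p = 0.00130, edgeR), and Srgn, at 661 and 827 against 255, 269 and 252 CPM, rose by 1.66 ± 0.15 (adjusted p = 0.00158, edgeR). Nkg7 fell by 1.07 ± 0.21 on the log2 scale (517 and 772 against 1494, 1496 and 1461 CPM, adjusted p = 0.0190, edgeR), a call that was lost without cNK CD8KO sample 1, 2 or 3 (adjusted p = 0.0880, 0.0854 and 0.0798). Gzmk had 0 and 40 counts against 342, 524 and 525 counts, a fitted change of -4.88 ± 1.16 (adjusted p = 0.0313, edgeR) that was also lost without cNK CD8KO sample 1, 2 or 3 (adjusted p = 0.118, 0.126 and 0.133) and with limma voom (0.0651). Serpinb9 (61.6 and 248 against 370, 338 and 388 CPM, adjusted p = 0.234) and Ctsw (627 and 787 against 976, 1004 and 1007 CPM, adjusted p = 0.137) were apart but not called by edgeR. Without LrNK CD8KO sample 1 or 2, which leaves 1 sample in that group, the change was -0.40 or -2.53 for Serpinb9. For Ctsw it was -0.18 or -0.63. Total-count scaling moves the median of all genes by -0.13 on the log2 scale in this comparison, and with it Ctsw is called lower (-0.49, adjusted p = 0.0365, edgeR).

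**Figure D2:**
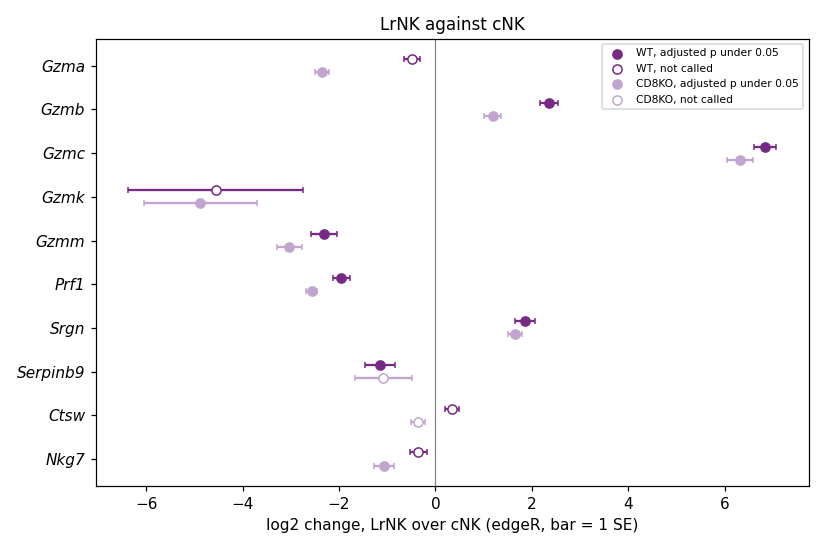
Log2 change of each member in LrNK over cNK cells (edgeR, bars of 1 SE) in WT and in samples labelled CD8KO; filled points have an adjusted p under 0.05. Gzmb, Gzmc and Srgn are to the right of 0 and Gzmm and Prf1 to the left in both genotypes, and Gzma lies at -0.48 in WT and -2.35 in CD8KO.

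The second question was whether the granule genes differ by genotype label within LrNK cells. The members took 0.939% to 1.18% of all counts in LrNK WT samples and 0.403% to 0.534% in LrNK CD8KO samples, with no overlap. No member was called by edgeR (0 of 10, against 0% of 16504 genes), in a fit with 5 samples whose common biological coefficient of variation was 98.2%. At an unadjusted p under 0.05 there were 5 of 10 members and 615 of all genes. DESeq2 called 62 genes, among them Gzma (adjusted p = 1.16e-09) and Gzmb (adjusted p = 0.000186), and limma voom with weights per cell type called 7 genes, among them Gzma (adjusted p = 0.0451). In bulk samples, fewer cells of a type and less RNA per cell cannot be told apart.

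In 7 of the 10 members both LrNK CD8KO samples were below all 3 LrNK WT samples, as were 8.47% of all genes tested. Gzma had the widest gap, with 909 and 1074 CPM in LrNK CD8KO against 3294, 3792 and 3043 CPM in LrNK WT samples, a log2 change of -1.75 ± 0.28 (3.37-fold lower, adjusted p = 0.796, edgeR) that ranked 9 among all genes by its p. Gzmb came next, at 955 and 1288 CPM against 2861, 3601 and 2793 CPM (-1.44 ± 0.31). Gzmc was at 88.0 and 134 CPM against 226, 242 and 229 CPM (-1.04 ± 0.29). When all 4 groups shared 1 spread, edgeR called Gzma (adjusted p = 0.00414) and Gzmb (adjusted p = 0.0232) lower, and 0.218% of 19287 genes were called lower.

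The other 4 members that were apart differed less. Prf1 was at 205 and 210 CPM against 396, 337 and 276 CPM (log2 change -0.68 ± 0.25), Ctsw at 627 and 787 against 1017, 1279 and 1142 CPM (-0.68 ± 0.27), Nkg7 at 517 and 772 against 894, 1226 and 979 CPM (-0.66 ± 0.32) and Gzmm at 3.48 and 2.09 against 6.04, 3.68 and 3.59 CPM (-0.66 ± 0.87). For Gzmm the samples nearest each other, at 3.48 and 3.59 CPM, were almost level. Srgn (661 and 827 against 694, 1074 and 788 CPM, -0.19 ± 0.32), Serpinb9 (61.6 and 248 against 107, 230 and 133 CPM, 0.02 ± 0.64) and Gzmk (0 and 40 against 0, 30 and 0 counts) overlapped. The mRNAs of serglycin and the granzyme B inhibitor therefore did not separate by label where those of granzymes A, B and C did.

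Each genotype had LrNK samples with few and with many detected genes, so the comparison could be made within each. The samples with few were LrNK CD8KO sample 1 and LrNK WT samples 1 and 3, so the changes there rest on 1 CD8KO sample. Among samples with few, the log2 change of Gzma was -1.78, of Gzmb -1.54, of Gzmc -1.35 and of Prf1 -0.69. Among those with many, which were 1 against 1 and allow no test, the changes were -1.80, -1.47, -0.83 and -0.67. Serpinb9 turned from -0.94 with few to 0.13 with many. With the detected-gene set as a term in the fit, an alternative chosen after seeing the data, no member was called, Gzma being nearest at -1.82 ± 0.17 (adjusted p = 0.0641, edgeR).

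Some other cell markers moved with the label in LrNK samples, where 9.84% of all genes were apart and higher with the CD8KO label. The 8 genes of the NK cell list summed to 8685 to 10115 CPM in WT and to 6431 to 7276 CPM in CD8KO samples, 6 of the 8 being apart and lower. The 17 neutrophil and monocyte genes summed to 1158 to 4902 CPM and 3172 to 10094 CPM, mostly Lyz2, with 8 of the 14 tested apart and higher and 1 lower (Mmp9). The 8 were Cd14, Ly6c2 and 6 genes that neutrophils express. Csf3r was at 10.8 to 63.4 CPM in WT and 64.4 to 137 CPM in CD8KO samples. S100a8 was at 0 to 0.940 and 1.73 to 6.08 CPM, Ngp at 0 to 0.190 and 1.00 to 2.82 CPM, and Lcn2, Ltf and Mpo at 0 and 0.390 to 2.56 CPM. Ly6g and Elane were at 0 in WT and at 0 to 0.112 CPM in CD8KO samples. The 8 conventional NK genes summed to 100.2 to 187 CPM in WT and 229.8 to 333 CPM in CD8KO samples, with 4 apart and higher and 2 lower. The 10 hepatocyte genes summed to 36.8 to 84.7 CPM and 92.4 to 249.8 CPM, with 3 apart and higher, and the 14 T cell genes to 1480 to 1795 CPM and 898 to 1161 CPM, with 4 of 13 tested apart and higher and 2 lower. The part of these in the granule genes was not tested. Counted per 1000 counts of the 8 NK cell genes, a scale added after seeing the data, Gzma was at 141.3 to 147.6 in CD8KO and 326 to 411 in WT samples, Gzmb at 148.5 to 177.0 and 283 to 390.1, and Gzmc at 13.7 to 18.5 and 22.4 to 26.4. On that scale these 3 members stayed apart, with log2 ratios of -1.33, -1.03 and -0.64, and the other 7 overlapped. The share of all genes apart on that scale was not computed.

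**Figure D3:**
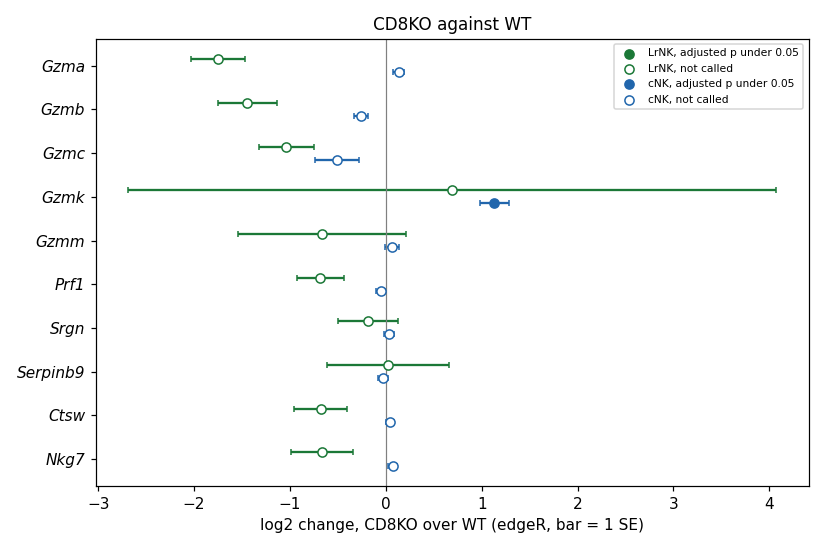
Log2 change of each member in samples labelled CD8KO over WT (edgeR, bars of 1 SE), for LrNK and cNK cells; the filled point has an adjusted p under 0.05. In LrNK cells Gzma, Gzmb and Gzmc lie farthest below 0, and in cNK cells Gzmk alone is called.

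In cNK cells, where replicates agreed closely (coefficient of variation of 9.60%), the same label went with a change in 1 of the 10 members. Gzmk rose, against 0.499% of 16619 genes called higher, from 3.23, 4.24 and 3.87 CPM in cNK WT to 7.04, 8.78 and 9.17 CPM in cNK CD8KO samples (log2 change 1.13 ± 0.15, 2.19-fold, adjusted p = 0.00100, edgeR). The groups did not overlap, and the call was lost only where the LrNK samples shared the spread (adjusted p = 1). Gzmb was at 631, 716 and 585 CPM in WT and 550, 495 and 577 CPM in CD8KO samples. That is a narrow gap, with a log2 change of -0.26 ± 0.07 (adjusted p = 0.108, edgeR), which DESeq2 called (adjusted p = 0.0163), as did edgeR without cNK WT sample 3 (-0.33, adjusted p = 0.0263).

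Gzmc was also lower in all 3 cNK CD8KO samples, at 1.36, 1.64 and 1.57 CPM against 2.78, 1.79 and 1.91 CPM (-0.51 ± 0.23, adjusted p = 0.372), so that 2 of the 10 members were apart and lower, against 8.35% of all genes. Gzma overlapped (5717, 5345 and 5508 against 4917, 5450 and 4650 CPM, log2 change 0.13 ± 0.06, adjusted p = 0.316) and was called without cNK WT sample 2 (0.21, adjusted p = 0.00774). The other 6 members overlapped as well, with log2 changes from -0.05 for Prf1 to 0.07 for Nkg7. The 14 T cell genes summed to 491 to 521 CPM in cNK WT and 619 to 644 CPM in cNK CD8KO samples, with 3 of 13 tested called higher (Cd8a, Cd3g and Cd3d, against 0.499% of all genes) and none lower. Most of the rise in that sum was Cd8a, at 0.561 to 0.578 CPM in WT and 85.9 to 109.1 CPM in CD8KO samples. Gzmk is also made by T cells, and the part of these was not tested. The 8 NK cell genes summed to 9144 to 9250 and 9335 to 9535 CPM, and per 1000 of their counts Gzmk stayed apart (0.352 to 0.458 in WT and 0.738 to 0.977 in CD8KO). The 8 conventional NK genes summed to 3657 to 3776 CPM in cNK WT and 3002 to 3299.8 CPM in cNK CD8KO samples, with 3 apart and lower and 1 higher. Their part was not tested.

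The label effects in LrNK and in cNK cells were then set against each other in 1 fit over the 4 groups. Gzma differed, its log2 change with the CD8KO label being lower in LrNK than in cNK cells (difference of -1.89 ± 0.23, adjusted p = 0.0248, edgeR), and it was the only member called, against 0.0363% of 19287 genes called lower. The call held with limma voom weights per cell type (adjusted p = 0.0363) and was lost without LrNK CD8KO sample 1 (-1.71, adjusted p = 0.0978), without cNK WT sample 1, 2 or 3 (adjusted p = 0.151, 0.0872 and 0.138), and without cNK CD8KO sample 1, 2 or 3 (adjusted p = 0.133, 0.106 and 0.115). Gzmb had a difference of -1.19 ± 0.28 that edgeR did not call (adjusted p = 0.232) and DESeq2 did (adjusted p = 0.00424). Without LrNK CD8KO sample 2, which leaves 1 sample in that group, the difference for Gzmb was -1.48. With the detected-gene set as a term, Gzma, Gzmb, Ctsw and Nkg7 were called (adjusted p = 0.000229, 0.00833, 0.0142 and 0.0125, edgeR). That fit called 291 of 19287 genes, against 8 without the term. For the other members the difference in the fit on all samples ran from -0.74 (Gzmm) to 0.05 (Serpinb9), without a call. With only the LrNK samples with many detected genes there is 1 per genotype. The spread then comes from the cNK samples alone, which varied far less, so no call is given. The difference there was -0.61 for Prf1, -0.86 for Gzmm and -0.39 for Srgn. With only those with few, where LrNK CD8KO has 1 sample, it was -0.79 for Ctsw, -0.89 for Nkg7 and -0.89 for Serpinb9.

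The balance of granzymes A and B within a sample does not depend on scaling. The count of Gzma over that of Gzmb was 1.15, 1.05 and 1.09 in LrNK WT, 0.952 and 0.834 in LrNK CD8KO, 7.79, 7.61 and 7.95 in cNK WT, and 10.4, 10.8 and 9.54 in cNK CD8KO samples. No group overlapped another. The ratio was thus 0.834 to 1.15 in LrNK and 7.61 to 10.8 in cNK samples. It is not adjusted for gene length, and per kb the LrNK WT means were 3356 for Gzma and 2148 for Gzmb. The CD8KO label went with a lower ratio in LrNK and a higher ratio in cNK cells.

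**Figure D4:**
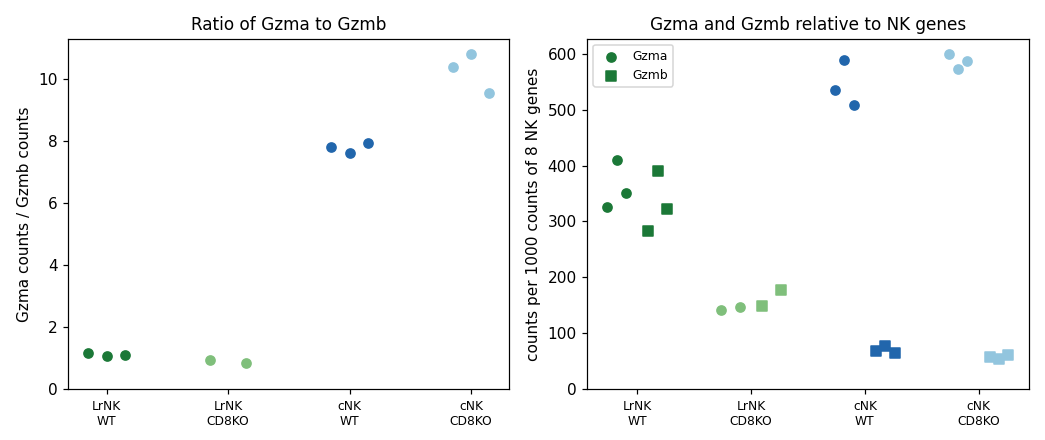
Left, the count of Gzma over that of Gzmb in each sample; right, Gzma (circles) and Gzmb (squares) per 1000 counts of 8 NK cell genes; both axes are linear from 0. The ratio is 0.834 to 1.15 in LrNK and 7.61 to 10.8 in cNK samples.

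At the chromosome 14 cluster, the genes between Cma1 and Gzmb were read in order after the values of the members were seen. Gzmb and Gzmc sit at its far end and were higher in LrNK cells. Cma1, mast cell chymase, at the near end (chr14:55941451-55944675), went the opposite way, at 154 to 188 CPM in cNK WT and 167 to 169.7 CPM in cNK CD8KO samples, against 0 to 0.489 CPM in LrNK WT and 0 to 0.570 CPM in LrNK CD8KO samples (log2 change of LrNK over cNK -9.52 ± 0.95, adjusted p = 0.00148 in WT and -8.69 ± 0.82, adjusted p = 0.00182 in CD8KO, edgeR). Of the other mast cell genes, Mcpt4, Tpsb2 and Fcer1a were at 0 in every cNK WT sample, Cpa3 was at 1.85 to 2.21 CPM, and Kit, which other cells also express, was at 73.3 to 85.6 CPM. The genes between the ends (Cma2, Mcpt1, Mcpt9, Mcpt2, Mcpt4, Mcpt8, Ctsg, Gzme, Gzmd, Gzmg, Gzmn and Gzmf) had group means of at most 1.12 CPM. At the chromosome 13 pair, Gzma was at 4650 to 5717 CPM in cNK samples and the neighbouring Gzmk at 3.23 to 9.17 CPM.

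**Figure D5:**
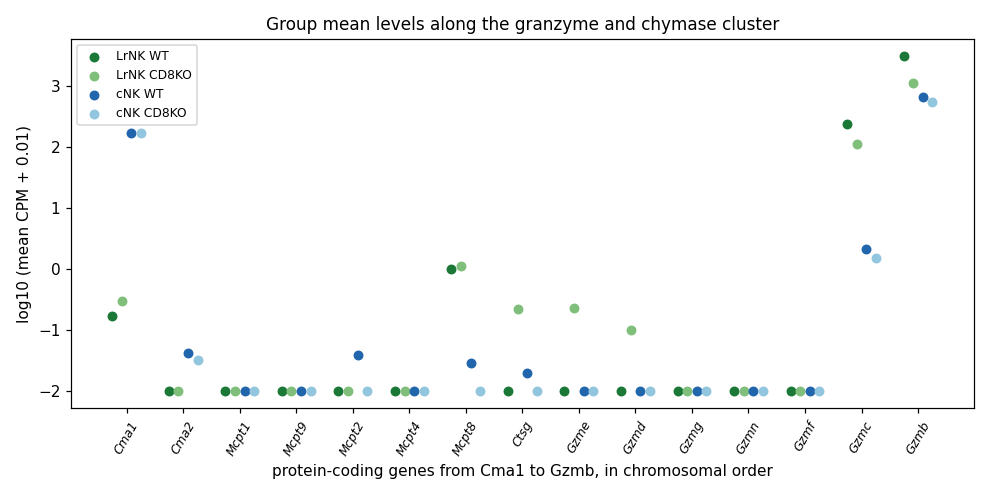
Group mean levels, as log10 of mean CPM + 0.01, of the protein-coding genes from Cma1 to Gzmb in chromosomal order, with 1 point per group; -2 stands for a mean of 0. Cma1 is high in cNK cells and near 0 in LrNK cells, Gzmc and Gzmb are higher in LrNK cells, and the genes between are near 0.

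Other genes of granule biology were read as lists. Of 14 granule protease and lysosomal membrane genes, 7 rose and 2 fell in LrNK WT against cNK WT cells, and 10 rose and 2 fell in the CD8KO samples. Of all genes tested, 10.9% rose and 9.83% fell in WT, and 15.4% rose and 11.6% fell in CD8KO samples. In the lists that follow, the counts for LrNK against cNK cells stand against these same shares. Cd63, a granule membrane tetraspanin, was at 33.1 to 47.9 CPM in LrNK WT and 1.05 to 1.43 CPM in cNK WT samples (log2 change 5.07 ± 0.23, adjusted p = 9.8e-05, edgeR). The cathepsins Ctsl (2.08 ± 0.20) and Ctsh (4.21 ± 0.58) rose as well. Ctsh, at 30.2 to 142.7 CPM in LrNK WT samples, was lowest in the sample with the least Lyz2, and the part of myeloid cells was not tested. Gnptab, which makes the mannose 6-phosphate tag that sorts granzymes to granules, fell by 1.72 ± 0.10 on the log2 scale (47.8 to 57.2 against 177.0 to 184.6 CPM, adjusted p = 0.000226, edgeR). Igf2r, a receptor for that tag, fell in both genotypes (-1.87 ± 0.31, adjusted p = 0.00888 in WT, -1.72 ± 0.12, adjusted p = 0.000889 in CD8KO, edgeR). M6pr, another receptor for the tag, was called in neither (-0.14 ± 0.11, adjusted p = 0.445 in WT, -0.14 ± 0.09, adjusted p = 0.332 in CD8KO, edgeR).

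Of 18 granule transport and exocytosis genes tested, 3 rose and 1 fell in WT, and 3 rose and none fell in CD8KO samples, close to the shares of all genes that rose. Of 11 genes that build the chondroitin sulphate of serglycin, 2 rose and 1 fell in WT, and 3 rose and 2 fell in CD8KO samples. Chst15, a sulphotransferase, rose by 2.77 ± 0.33 on the log2 scale in WT (11.2 to 18.3 against 1.95 to 2.39 CPM, adjusted p = 0.00273, edgeR), and B4galt7, which adds the first galactose of the linker, fell by 0.75 ± 0.12 (adjusted p = 0.00783). Of 5 other intracellular serpins tested, 2 rose and 2 fell in each genotype. By label, edgeR called none of the 48 list genes tested in LrNK cells (6 at an unadjusted p under 0.05, 0 by DESeq2) and none of 47 in cNK cells (8 unadjusted, 2 by DESeq2, Serpinb9b and Xylt1). It called none of the differences between the label effects either (10 of 48 unadjusted, 1 by DESeq2, Serpinb6a). Over all genes, edgeR gave an unadjusted p under 0.05 to 615 of 16504 in LrNK cells and 2141 of 16619 in cNK cells. For the differences the number was 1669 of 19287. The list counts by label stand against these numbers.

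The protein-coding genes whose levels ran most alike, by Pearson's r of log2(CPM + 1) over the 11 samples among 8558 genes with a mean of at least 10 CPM, were named for 3 members. For Gzma they were Aoah (r = 0.98), Styk1 (0.98) and Gimap5 (0.97), for Gzmb Trmt112 (0.98), Klra5 (0.98) and Cited4 (0.97), and for Prf1 Prkcq (0.995), Dnmt1 (0.99) and Il18rap (0.99). The points share their groups and the depth of their libraries, so these values describe the samples only. Il18rap, a chain of the interleukin 18 receptor, had group means of 163 and 108.9 CPM in LrNK and 971 and 1027 CPM in cNK cells, WT first.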

How the data were processed

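RNA of sorted mouse NK cells was sequenced in 13 libraries. The deposited files hold raw counts of reads per Ensembl gene. Per the submitters' processing notes the reads were aligned with HISAT2 2.1.0 to GRCm38; for the counter, the annotation release and the use of strand, nothing is stated in the notes, labels or headers used here. Per the labels' protocols, libraries were made with the TruSeq RNA kit from total RNA. Of 54532 genes, 54409 matched GENCODE M21.

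The members and lists were chosen with earlier results of these data known. All 10 members are named in each comparison. Of the other lists, counts are given and at most the 6 called genes with the smallest p, with M6pr added beside Igf2r. The chromosome 14 genes were chosen after their values were seen. Libraries with a chi-square per degree of freedom under 4, and with over 3 times that value in the other pairs, were summed. CPM scales counts to 1000000 per sample; CPM per kb divides by the union of exons. Tests used edgeR 4.0.16 in R 4.3.3 (TMM scaling, filterByExpr with a minimum count of 10 and total of 15, quasi-likelihood test, Benjamini-Hochberg over all genes, adjusted p under 0.05) on the groups compared only, because LrNK samples varied far more than cNK samples; the difference of label effects used all 4 groups. Alternatives were DESeq2 1.42.0, limma 3.58.1 (voom), other scalings, no filter, a replicate block and leaving out each sample. The tests were tried on simulated data first. The LrNK samples simulated varied less than the spread fitted here, so this does not show how the tests perform on LrNK samples. Limits for a count of 0 (3 counts) cover counting error only.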

Additional observations from a re-analysis of the deposited data

Results flagged for a closer look

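The effect of the CD8KO label on Gzma differed between the cell types. In LrNK cells Gzma was at 909 and 1074 CPM with the CD8KO label against 3043 to 3792 CPM in WT samples, and in cNK cells at 5345 to 5717 CPM against 4650 to 5450 CPM. The test of the difference itself gave a log2 value of -1.891 (adjusted p = 0.0248, edgeR's quasi-likelihood test over 19287 genes). Both LrNK CD8KO samples were below all 3 LrNK WT samples. The call was lost when any cNK sample or LrNK CD8KO sample 1 was left out, the adjusted p then being 0.0872 to 0.151.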

How the results depend on the processing

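Over 838 re-computed changes of single members, 27 turned direction, 24 lost a call and 56 gained one. Of all genes, the fits on all samples called 0 of 16504 by label in LrNK cells and 218 of 16619 in cNK cells. They called 3414 of 16456 for LrNK against cNK cells in WT, 4804 of 17795 in CD8KO samples and 8 of 19287 for the difference. With 1 shared spread, 148 of 19287 were called by label in LrNK and 1 in cNK cells. For most other settings the total is not given here, so the member counts below lack that comparison. By the CD8KO label in LrNK cells, where no member was called, 2 were called without a filter on low counts, 2 by DESeq2, 2 with the replicate block, 2 when all 4 groups shared 1 spread, 1 by limma voom and 1 with every library counted, always Gzma or Gzma with Gzmb; leaving out any sample gave 0. By the label in cNK cells the count was 3 without a filter, 2 by DESeq2, 0 with a shared spread and 1 to 2 without each sample. For LrNK against cNK cells it was 5 to 9 in WT and 5 to 10 in CD8KO samples without each sample. For the difference of the label effects it was 2 by DESeq2 and 4 with the detected-gene set as a term, and it fell to 0 with some samples left out. Deviations from the group mean correlated between LrNK samples of the same number in 2 cases (r = 0.45 and 0.67). Between cNK samples they did not (r = -0.06 to 0.19). With n = 2 in LrNK CD8KO, the deviations of its samples mirror each other, so the 2 LrNK values are not independent. In both genotypes LrNK sample 1 had few detected genes and sample 2 many. The numbers therefore do not establish pairs.

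Turns of direction were among changes near 0 or with few counts. By the label in LrNK cells, Serpinb9 was -0.013 with total counts, -0.13 with voom, -0.34 with the replicate block, -0.50 with the detected-gene set as a term, -0.94 within samples with few detected genes and -1.43 to 0.73 without each sample. Srgn was 0.24 per NK cell gene count and -0.44 to 0.077 without each sample, and Gzmk -5.83 to 1.68. In cNK cells, without each sample, Prf1 ran from -0.094 to 0.015, Srgn from -0.00048 to 0.081 and Serpinb9 from -0.073 to 0.020. For the difference, Serpinb9 was -0.094 with voom, -0.14 with the replicate block, -0.46 with the term, -0.89 within samples with few detected genes and -1.38 to 0.76 without each sample. Gzmk was 0.054 with voom and -7.32 to 5.78 without each sample, and Srgn -0.45 to 0.071. Without LrNK CD8KO sample 1 or 2 that group has 1 sample, which is assumed to vary like the others. The causes were not tested. Gzmk in LrNK samples rests on at most 40 counts, which limits any change stated for it.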
